A study of Mus musculus with 6 samples.

Results

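The imprinted Kcnq1ot1-Cdkn1c domain of mouse chromosome 7 was examined in neocortex at postnatal day 5 by reduced representation bisulfite sequencing (RRBS), an assay that reads CpG methylation next to CCGG sites cut by MspI. The members were the CpGs of a pair of intervals given in mm39 coordinates, 142755000 to 142860000 around Kcnq1ot1 and 143005000 to 143020000 around Cdkn1c, that had at least 10 reads, both strands added, in at least 2 samples of each genotype. This rule kept 79 CpGs, 27 in the Kcnq1ot1 interval and 52 in the Cdkn1c interval, out of 864621 autosomal CpGs that met it in the whole series. The groups were 3 samples labelled Chd8+/-, heterozygous for the chromatin remodeller gene Chd8, and 3 labelled WT. The allele, strain, sex and any pooling of animals are not given in the sources used here, and the genotype and tissue labels were not checked against the data. No label states that replicates were separate animals; the p-values therefore reflect only how far these samples vary, and that variation may be technical.

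Kcnq1ot1 is a long noncoding RNA transcribed from the paternal allele, antisense to the potassium channel gene Kcnq1, and it silences neighbouring genes in cis. Its promoter lies in a control region that receives methylation in the oocyte, so the maternal copy is methylated and silent. Cdkn1c encodes p57Kip2, an inhibitor of cyclin-dependent kinases that restrains proliferation, in the developing cortex among other tissues, and is expressed mainly from the maternal allele. In mouse the paternal Cdkn1c island gains methylation only after fertilization and is therefore called a somatic differentially methylated region. With 1 methylated and 1 unmethylated allele a bulk level near 50% is anticipated at such regions. Alleles were not separated in these tables, and a level in bulk tissue cannot tell a change in every cell from a change in the mixture of cells.

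The Kcnq1ot1 promoter is shown because the control region is known to contain it. In the RefSeq gene table of the GRCm38.p6 build, Kcnq1ot1 lies within the span of Kcnq1, and Cdkn1c is followed by Gm33663, Slc22a18, Phlda2 and Nap1l4. The RefSeq table (GRCm38.p6, chr7:143296498-143296797, minus strand) gave a sequence for 1 of the 2 members, Kcnq1ot1, running from 250 bases before to 50 bases after the start of the gene, with CpGs in capitals.
Kcnq1ot1: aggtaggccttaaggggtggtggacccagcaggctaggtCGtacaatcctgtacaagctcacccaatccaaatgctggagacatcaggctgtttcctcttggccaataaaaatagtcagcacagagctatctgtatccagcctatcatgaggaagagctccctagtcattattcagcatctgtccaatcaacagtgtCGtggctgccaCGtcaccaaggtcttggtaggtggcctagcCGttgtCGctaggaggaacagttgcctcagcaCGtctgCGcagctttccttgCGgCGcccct
It holds 9 CpGs, against a median of 7 over the 32851 promoters of this length in the table, and 45.8% of those hold at least as many. The MspI site CCGG, which reads the same on both strands, does not occur in it, as in 47.2% of all promoters. The letters CCAAT, the box bound by the factor NF-Y, occur 3 times, all on the strand shown, and 3.37% of all promoters hold at least 3 copies when both strands are searched. A match is a description of the sequence and not a binding site. These coordinates belong to an earlier build than the methylation tables and cannot be set beside the mm39 positions given for the levels. Exon, intron and UTR positions in mm39 were likewise not used here.

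Coverage summed over listed CpG cytosines was 39820333, 32285980 and 36887445 reads in Chd8+/- replicates 1, 2 and 3, and 49406794, 54818138 and 45498222 in WT replicates 1, 2 and 3. The lowest WT total was thus above the highest Chd8+/- total. The samples numbered 3 stood apart on chromosome X, which took 2.56% of this coverage in Chd8+/- replicate 3 and 2.58% in WT replicate 3, against 1.18% to 1.21% in the other 4. Results are therefore also given without both samples numbered 3. Within the domain 18 of 27 CpGs of the Kcnq1ot1 interval and 25 of 52 of the Cdkn1c interval had at least 10 reads in all 6 samples, against 61.9% of all autosomal CpGs that met the rule. Median coverage per CpG and sample was 25 reads in the Kcnq1ot1 interval and 23.5 in the Cdkn1c interval, against 31 for all such autosomal CpGs. The lowest coverage listed on a strand was 10 in every sample. Below, a CpG called read in a sample is one listed for it, and an unlisted one may still have had fewer reads. Merged counts lack any strand that was not listed. Reads carry no molecular identifiers in the labels, so intervals and limits below cover counting error only.

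At the edge of the rule, the CpG at 142849112 was listed in Chd8+/- replicate 2 and WT replicates 1 and 2 only, at 20%, 8.33% and 46.2%, and fell outside. The CpG at 142849142 lay just inside, with at least 10 reads in 5 samples. In all, 6 listed CpGs of the Kcnq1ot1 interval and 65 of the Cdkn1c interval did not meet the rule.

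The Kcnq1ot1 control region was measured at 16 CpGs, all within the bases from 142849142 to 142849354, and its average lay well below 50%. The interval set for it ran from 142848001 to 142850500, and no CpG outside that short run met the rule. The mean level over CpGs was 13.4%, 23.0% and 40.3% in Chd8+/- replicates 1, 2 and 3, and 15.9%, 17.4% and 0% in WT replicates 1, 2 and 3. The groups overlapped, and WT replicate 3 had listed reads at 11 of the 16 CpGs only, without the 5 that were the most methylated in WT. Chd8+/- averaged 25.6% ± 13.6 and WT 11.1% ± 9.63 (SD, n = 3 each), a difference of 14.5 points with a standard error of 9.63 and an exact two-sided permutation p of 0.3, where 0.1 is the smallest value that 3 samples against 3 allow. Without both samples numbered 3 the means were 18.2% and 16.6%, a difference of 1.57 points.

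On the 11 CpGs read in all 6 samples the groups no longer overlapped. The levels there were 15.7%, 11.9% and 34.3% in Chd8+/- and 1.99%, 5.31% and 0% in WT, with means of 20.6% ± 11.99 and 2.43% ± 2.68 (SD, n = 3 each). The difference was 18.2 points and the exact permutation p was 0.1. These 11 CpGs leave out the run that was nearest to 50%. In Chd8+/- replicates 1 and 2 all their methylated reads lay in the 4 CpGs from 142849206 to 142849245. Those 4 CpGs are described below and were singled out after their values were seen.

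**Figure D1:**
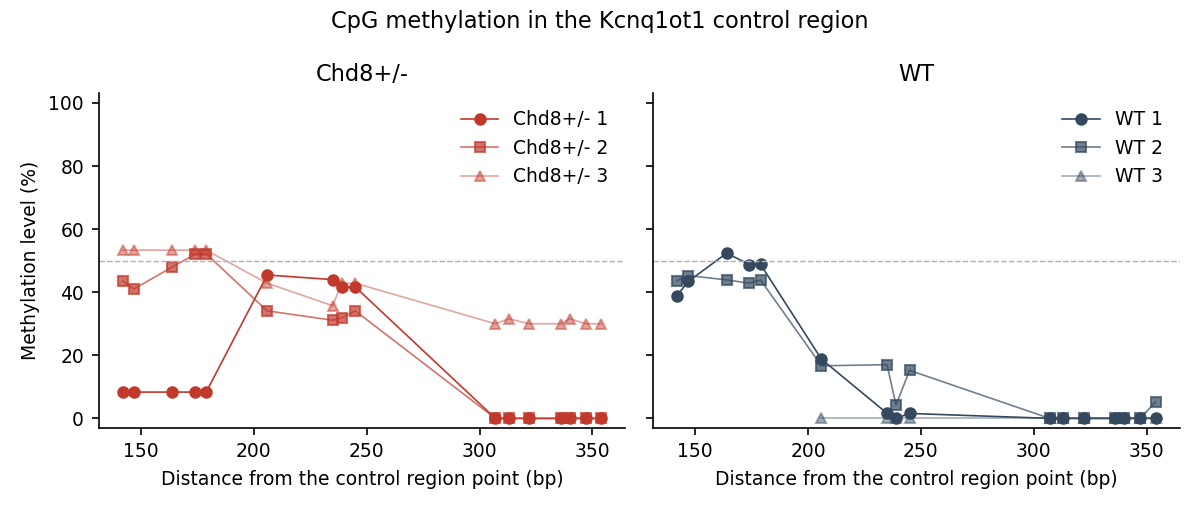
Methylation level of each CpG of the control region (vertical axis, percent) by distance from the point the region is set around, position 142849000 (horizontal axis, bp), with Chd8+/- samples on the left and WT samples on the right and a dashed line at 50%. Levels change in steps between 3 runs of CpGs that are nearly flat within a run in Chd8+/- samples, and WT replicate 3 has no value in the first run.

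The average hid 3 runs of CpGs with different levels. Such runs, called stacks here, were defined after the data were seen as at least 3 CpGs of one strand with neighbours at most 50 bp apart. The first stack, 5 CpGs from 142849142 to 142849179 on the minus strand, was the only near-50% stretch of the control region. Its levels were 8.33%, 52.0% and 53.3% in Chd8+/- replicates 1, 2 and 3, and 50.03% and 43.7% in WT replicates 1 and 2. No reads were listed there for WT replicate 3. Thus 4 of the 5 samples lay between 43.7% and 53.3%, and Chd8+/- replicate 1 stood apart with 1 methylated read of 12 at each of the 5 CpGs. At the CpG 142849174 the 95% Wilson interval for that sample was 1.49% to 35.4%, which overlaps the 34.3% to 63.5% of WT replicate 1. At 142849164 the same interval did not overlap the 37.7% to 66.6% of WT replicate 1, while at the other CpGs of the stack these samples overlapped. On the plus strand the CpGs 142849142 and 142849147 were read in 3 samples, and at 142849147 gave 3 of 15 methylated reads in Chd8+/- replicate 2, 1 of 12 in WT replicate 1 and 6 of 13 in WT replicate 2. The minus strand of that CpG gave 13 of 24, 22 of 41 and 18 of 40 in those samples, so the near-50% level of the stack is that of its minus-strand reads.

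The second stack, 4 CpGs from 142849206 to 142849245 on the plus strand, separated the genotypes. Levels were 43.2%, 32.8% and 41.1% in Chd8+/- and 5.48%, 13.3% and 0% in WT, means of 39.0% ± 5.51 and 6.26% ± 6.68 (SD, n = 3 each) and a difference of 32.8 points. All 3 Chd8+/- samples were higher than all 3 WT samples. At the CpG 142849239 the counts were 10 of 24, 14 of 44 and 18 of 42 methylated reads in Chd8+/- replicates 1, 2 and 3, and 0 of 59, 2 of 47 and 0 of 10 in WT replicates 1, 2 and 3. The Wilson intervals there were 24.5% to 61.2%, 20% to 46.6% and 29.1% to 57.8% in Chd8+/-, and 1.17% to 14.2% in WT replicate 2. Taking 3 reads as the limit that a count of 0 allows, the level could reach 5.08% in WT replicate 1 and 30% in WT replicate 3. In WT replicate 1 the first CpG of the stack, 142849206, had 12 of 64 methylated reads, apart from the 0 of 59 at 142849239.

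This stack was singled out after its values were seen, and no test across the genome called it. Among 63747 autosomal stacks read in all 6 samples, edgeR's quasi-likelihood test gave it an unadjusted p of 0.0175 and a Benjamini-Hochberg adjusted p of 0.935, and limma an unadjusted p of 0.00240 and an adjusted p of 0.934. At an adjusted p under 0.05 edgeR and limma each called 0 stacks (0%). At an unadjusted p under 0.05, the single stack of the domain that passed was 1 of 8 tested, while edgeR passed 3.06% and limma 5.21% of all stacks. With Chd8+/- higher, as here, edgeR passed 1.74% and limma 3.36%. Groups did not overlap in 7.36% of all stacks, and in 4.0% Chd8+/- was the higher group. The edgeR p was 0.0415 without Chd8+/- replicate 3, 0.0501 without WT replicate 1 and 0.0555 without WT replicate 3, and the difference ranged from 29.6 to 36.3 points with each sample left out in turn.

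The third stack, 7 CpGs from 142849307 to 142849354 on the minus strand, was unmethylated in all samples but one. Levels were 0%, 0% and 30.5% in Chd8+/- replicates 1, 2 and 3, and 0%, 0.752% and 0% in WT. Chd8+/- replicate 3 had 6 methylated reads at each of the 7 CpGs, out of 19 or 20. WT replicate 2 had a single methylated read, at 142849354. At the CpG 142849322 a count of 0 allows, by the same limit of 3 reads, up to 12.5% and 25.0% in Chd8+/- replicates 1 and 2, and up to 17.6%, 15.0% and 18.8% in WT replicates 1, 2 and 3, so a level near 50% lies beyond counting error in those 5 samples. The edgeR p for the genotype was 0.281 and its adjusted p 0.935.

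In the control region the CpGs of a stack carried nearly the same level wherever that level was intermediate. At stack levels of 20 to 80%, the SD between the CpGs of a stack within a sample ranged from 0 to 3.57 points over 8 pairs of stack and sample, with a median of 1.70. In the Cdkn1c interval it ranged from 1.44 to 31.4 points over 39 pairs, with a median of 15.5. Over all autosomal stacks the median was 17.7 points in 93988 pairs. An SD of at most 5 points was found in 8 of 8 pairs of the control region, 2 of 39 of the Cdkn1c interval and 9.81% of all pairs. This is a description without a test, since the pairs share libraries and reads. The 8 pairs of the control region had 15 to 44.3 reads per CpG. Pairs outside 20 to 80% were not counted. Among these, the second stack of WT replicates 1 and 2 had SDs of 8.88 and 6.07 points. In the Cdkn1c interval, 2 stacks of Chd8+/- replicate 1 just below that range were as flat as the control region, with an SD of 0.510 points at a level of 19.0% and 0.392 points at 15.96%.

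**Figure D2:**
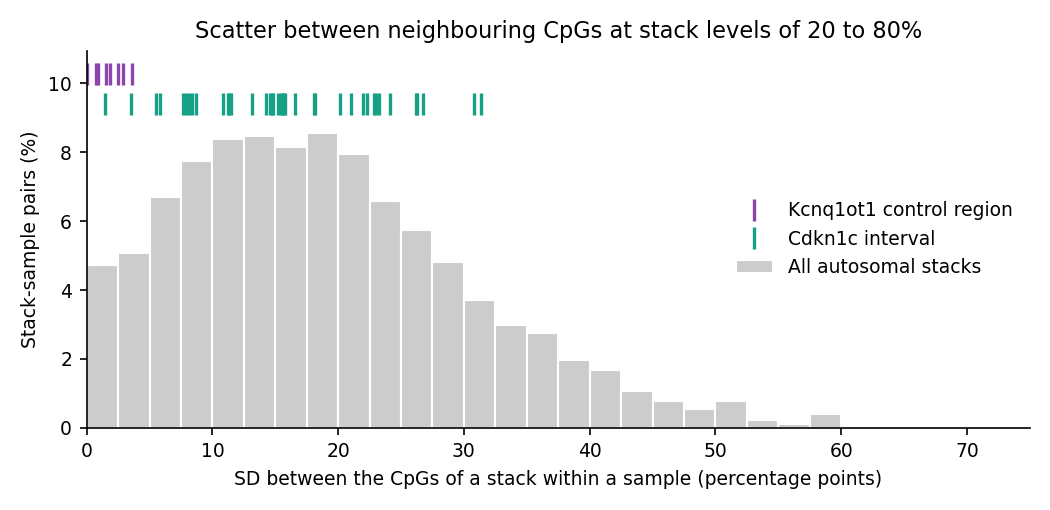
Scatter of levels between the CpGs of a stack within a sample, in percentage points (horizontal axis), for pairs of stack and sample with a level of 20 to 80%. Grey bars give the percentage of all 93988 autosomal pairs (vertical axis), purple ticks the 8 pairs of the control region, all at or below 3.57, and green ticks the 39 pairs of the Cdkn1c interval, with a median of 15.5.

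Outside the control region the Kcnq1ot1 interval held 11 CpGs, which ranged from nearly unmethylated to fully methylated. Levels averaged 69.4%, 59.5% and 69.5% in Chd8+/- and 64.9%, 64.1% and 66.9% in WT, means of 66.1% ± 5.76 and 65.3% ± 1.45 (SD, n = 3 each). The difference of 0.834 points had a standard error of 3.43 and an exact permutation p of 0.9, and was −0.0690 points without both samples numbered 3. The groups overlapped.

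The outer CpGs that met the rule were highly methylated. They ran from 142789541 to 142853223, so the ends of the interval itself were not measured. At 142789912 levels were 89.7%, 93.1% and 94.8% in Chd8+/- and 93.0%, 92.7% and 100% in WT. At 142814187 they were 95.1%, 100% and 100% in Chd8+/- and 78.0%, 93.3% and 98.7% in WT. On the other side of the control region, at 142853223, they were 100% and 86.1% in Chd8+/- replicates 1 and 3 and 100% in each WT sample. The control region therefore lay between CpGs with means of at least 80% on both sides, at 142841256 and 142853223, and the single CpG in the gap between 142841256 and the region, 142843485, stood at 0% and 20% in Chd8+/- replicates 1 and 3 and at 13.3%, 19.2% and 25% in WT.

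A second low stretch lay near 142840918. That CpG stood at 17.0%, 1.56% and 35.7% in Chd8+/- and 3.51%, 12.1% and 11.4% in WT, and its neighbour 142840954 at 13.0%, 0% and 16% in Chd8+/- and 0%, 8.70% and 0% in WT. CpGs nearby were far higher, with 142840551 at 85.6% ± 12.5 in Chd8+/- and 80.5% ± 17.4 in WT (SD, n = 3 each). The CpG 142840289 was the one single site of this interval outside the control region within 35 to 65%, at 44.8% and 54.5% in Chd8+/- replicates 2 and 3 and 52.5%, 52.6% and 70% in WT.

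The Cdkn1c island was taken as the bases from 143012001 to 143016000, bounds set here and not checked against a gene annotation in mm39. The island so set had intermediate average levels in every sample. Its 33 CpGs averaged 37.6%, 51.8% and 52.6% in Chd8+/- and 33.9%, 42.6% and 48.3% in WT, with overlapping groups. Means were 47.3% ± 8.42 and 41.6% ± 7.25 (SD, n = 3 each), and the difference of 5.76 points had a standard error of 6.42 and an exact permutation p of 0.5. Without both samples numbered 3 it was 6.48 points, with means of 44.7% and 38.2%. Chd8+/- replicate 2 had listed reads at only 17 of the 33 CpGs. On the 9 CpGs read in all 6 samples the difference turned to −5.27 points, with 45.8% ± 21.2 in Chd8+/- and 51.1% ± 13.2 in WT (SD, n = 3 each) and an exact permutation p of 0.8.

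Within the island levels differed between neighbouring CpGs and between samples. Over 6 samples 14 of the 33 CpGs had a mean of 35 to 65%, 1 a mean under 20% and 0 a mean of at least 90%, and Chd8+/- was higher at 15 and lower at 18. The levels stayed between 46.1% and 62.4% in all 5 samples with listed reads in the stack from 143013856 to 143013878, 6 CpGs on the minus strand. It stood at 52.1% and 46.1% in Chd8+/- replicates 1 and 3, and at 50.1%, 53.8% and 62.4% in WT. Its means of 49.1% ± 4.25 (SD, n = 2) and 55.4% ± 6.30 (SD, n = 3) came from overlapping groups. Even here single CpGs differed, since WT levels averaged 77.4% ± 2.51 at 143013859 and 42.1% ± 2.40 at 143013874 (SD, n = 3 each).

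Among the island stacks, the widest scatter between samples of a genotype was found at slightly lower coordinates. The stack of 5 CpGs from 143013610 to 143013644 stood at 15.96%, 42.3% and 80.5% in Chd8+/- and at 22.1%, 57.1% and 74.8% in WT. Both genotypes covered nearly the same range, and replicate 1 was lowest and replicate 3 highest in each, although the numbers were not found to pair samples. Means were 46.3% ± 32.5 and 51.3% ± 26.8 (SD, n = 3 each), at 13.2 to 50.6 reads per CpG.

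Differences of over 20 points between the genotype means were found in 3 island stacks that each lacked a Chd8+/- sample. From 143013138 to 143013186, 4 CpGs stood at 38.8% and 38.2% in Chd8+/- replicates 1 and 3, and at 2.22%, 29.97% and 18.3% in WT. From 143013512 to 143013556, 6 CpGs stood at 19.0% and 28.3% in Chd8+/- replicates 1 and 3, and at 42.7% and 45.5% in WT replicates 1 and 2. The directions of these differences were opposite. From 143014890 to 143014912, 5 CpGs stood at 28.9% and 65.6% in Chd8+/- replicates 2 and 3, and at 18.5%, 22.5% and 29.0% in WT. These stacks were picked for the size of their differences, and with missing samples none of the 3 was tested.

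**Figure D3:**
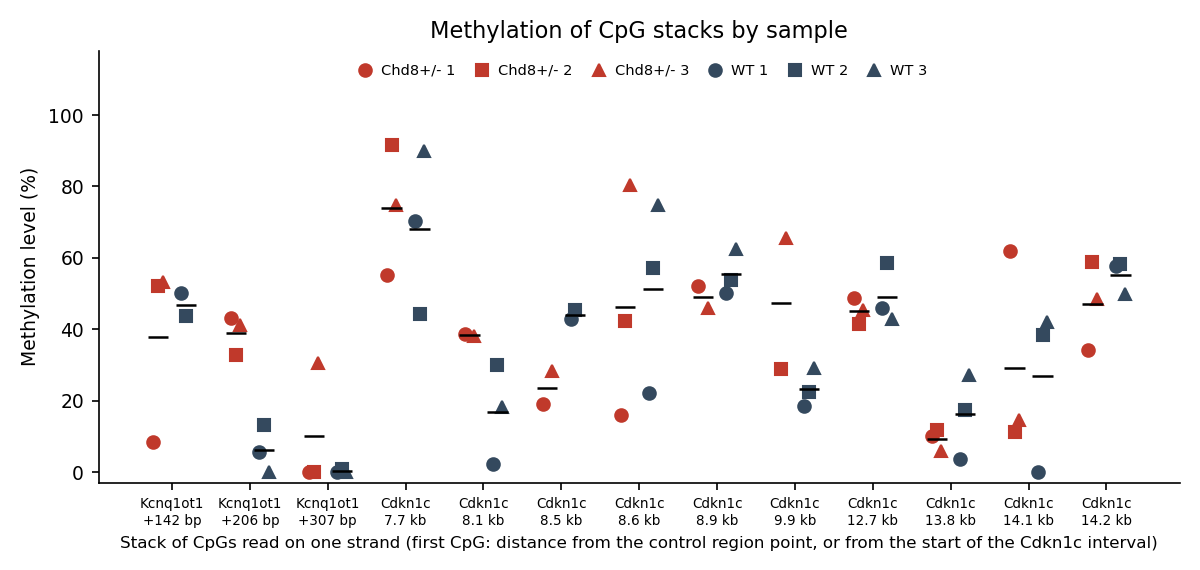
Methylation level (vertical axis, percent) of the 13 stacks of the domain by sample, Chd8+/- in red to the left of WT in blue, with black bars for group means. Stacks are named on the horizontal axis by the distance of their first CpG from the control region point or from the start of the Cdkn1c interval. In the second Kcnq1ot1 stack the 3 Chd8+/- samples lie between 32.8% and 43.2% and the 3 WT samples at or below 13.3%.

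The Cdkn1c interval beyond the island held 19 CpGs, which averaged 34.0%, 24.0% and 25.7% in Chd8+/- and 23.0%, 36.8% and 35.6% in WT, with overlapping groups. Means were 27.9% ± 5.36 and 31.8% ± 7.64 (SD, n = 3 each), a difference of −3.87 points with a standard error of 5.39 and an exact permutation p of 0.5. Without both samples numbered 3 it was −0.884 points. Stacks near 50% were found here too, read in all 6 samples. That from 143017676 to 143017715 stood at 48.7%, 41.3% and 45.5% in Chd8+/- and at 46.1%, 58.5% and 42.8% in WT. Its CpGs differed within every sample, with SDs between them of 13.2 to 22.3 points. The stack from 143019188 to 143019208 stood at 34.2%, 58.9% and 48.4% in Chd8+/- and at 57.8%, 58.3% and 49.9% in WT. At 143019208 the groups did not overlap, with 26.0%, 23.3% and 22.6% in Chd8+/- and 42.1%, 42.9% and 46.4% in WT, and edgeR over single CpGs gave an unadjusted p of 0.339 and an adjusted p of 0.979. That CpG was chosen after its values were seen. Its neighbour 143019197 stood at 65.03% ± 13.2 in Chd8+/- and 65.3% ± 13.2 in WT (SD, n = 3 each). The stacks beyond the island from 143018787 to 143018817 and from 143019077 to 143019125 averaged lower, at 12.7% and 28.0%. The latter varied widely, at 61.9%, 11.2% and 14.5% in Chd8+/- and 0%, 38.5% and 42.2% in WT.

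**Figure D4:**
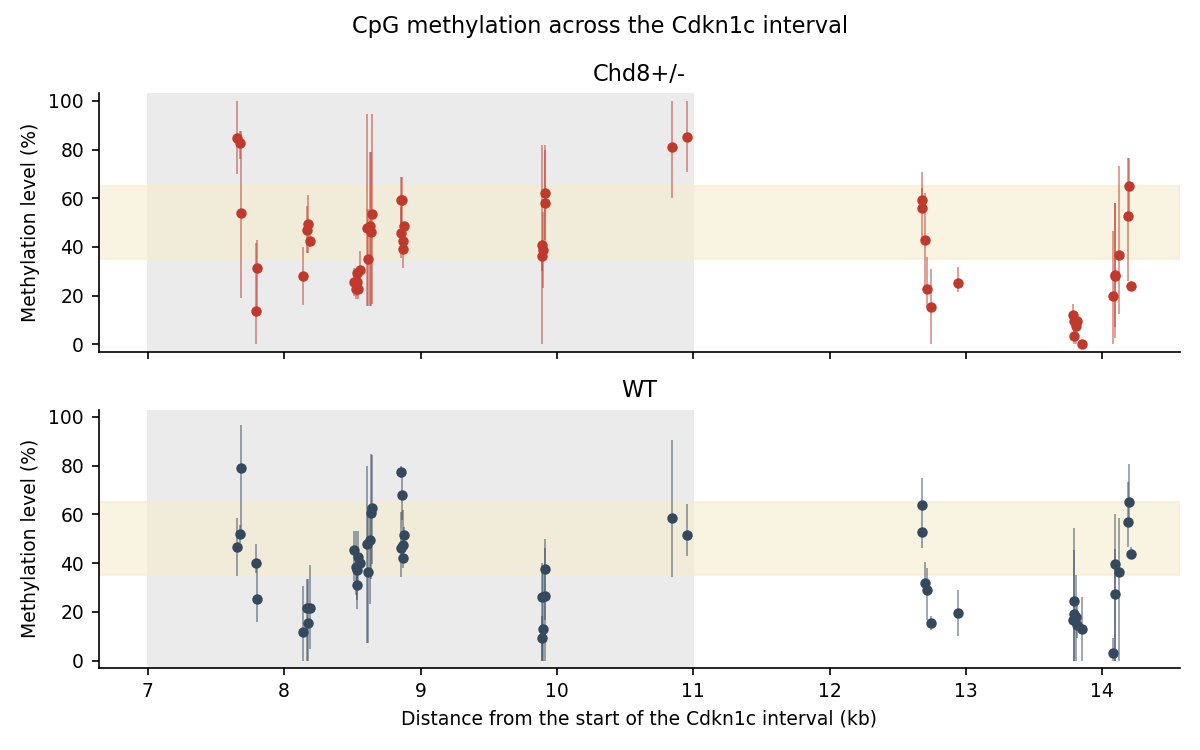
Mean methylation level of each CpG of the Cdkn1c interval (points, vertical axis in percent) with the range over samples (lines), by distance from the start of the interval (horizontal axis, kb), Chd8+/- above and WT below. Grey marks the island interval from 7 to 11 kb and the pale band levels of 35 to 65%, which hold 14 of the 33 island CpGs when all 6 samples are averaged.

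On a fixed grid of 500-bp windows with at least 3 CpGs, the domain filled 9 windows, 2 in the Kcnq1ot1 interval and 7 in the Cdkn1c interval. A window was called near-50% when its mean over the 6 samples was 35 to 65%. This held for 4 of the 9 windows, all in the Cdkn1c interval, against 10.2% of the 106184 autosomal windows. No near-50% windows adjoined each other. The control region's single window, 142849001 to 142849500, averaged 18.3% and was not among them. In windows with at least 10 CpGs, 90.1% of autosomal windows were under 10%, 2.88% at 10 to 35% and 1.58% near 50%. The domain had 2 such windows, that of the control region with 16 CpGs and 143013501 to 143014000 with 17.

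The near-50% windows of the island were 143012501 to 143013000 and 143013501 to 143014000. The first stood at 35.9%, 70.8% and 53.4% in Chd8+/- and at 54.9%, 37.7% and 55.9% in WT. It joined unlike CpGs. Its stack from 143012655 to 143012687, 3 CpGs on the plus strand, averaged 71.0% over samples. The CpGs 143012793 and 143012804 had means of 13.9% and 31.5% in Chd8+/- and 40.2% and 25.4% in WT. The second window stood at 31.5%, 42.3% and 49.9% in Chd8+/- and at 34.6%, 51.4% and 60.7% in WT. In both windows the groups overlapped.

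Of the other windows near 50%, that from 143017501 to 143018000 was the most even between samples, at 42.9%, 31.2% and 40.9% in Chd8+/- and 33.5%, 40.01% and 36.3% in WT. The window from 143019001 to 143019500 stood at 48.4%, 31.6% and 29.0% in Chd8+/- and 24.8%, 47.0% and 44.9% in WT. Both groups again covered much the same levels. This last window joined unlike stacks, from 143019077 to 143019125 with a mean of 28.0% and from 143019188 to 143019208 with a mean of 51.2%.

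The windows outside the band were lower. The window from 143013001 to 143013500 stood at 38.8% and 44.8% in Chd8+/- replicates 1 and 3 and at 2.22%, 33.5% and 16.8% in WT, and that from 143014501 to 143015000 at 28.9% and 65.6% in Chd8+/- replicates 2 and 3 and at 18.5%, 22.5% and 29.0% in WT. The lowest, from 143018501 to 143019000, stood at 8.33%, 7.86% and 6% in Chd8+/- and at 10.4%, 21.6% and 21.8% in WT, so that all Chd8+/- samples were lower than all WT samples. In its plus-strand stack of 5 CpGs, 143018787 to 143018817, the groups overlapped. Levels there were 10%, 11.8% and 6% in Chd8+/- and 3.64%, 17.5% and 27.3% in WT, with an edgeR p of 0.571. In the Kcnq1ot1 interval the window from 142840501 to 142841000 stood at 36.3%, 26.4% and 50.6% in Chd8+/- and 33.3%, 27.6% and 31.6% in WT, and its edgeR p was 0.876. The edgeR log2 fold change, on summed reads, was −0.120, opposite in direction to the 6.97 points by which the unweighted Chd8+/- mean was higher.

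No window of the domain passed the test between genotypes. With edgeR over 92428 autosomal windows read in all 6 samples, 0 of the 7 domain windows tested passed an adjusted p of 0.05, as did 0% of all windows, and 0 of 7 had an unadjusted p under 0.05, against 3.48% of all and 1.92% with Chd8+/- higher. limma also gave 0 of 7 by either rule. Neither tool passed known changes after adjustment in simulated reads of this depth, with few features changed and a spread between samples that was assumed. Other settings were not simulated, and a count of 0 does not show that levels were alike. The smallest edgeR p was 0.0764, with an adjusted p of 1.00, for the window from 143018501 to 143019000, where Chd8+/- was lower by a difference of −10.5 points. It was the 1 tested window of 7 in which the groups did not overlap, against 8.99% of all windows tested. Groups did not overlap with Chd8+/- lower, as here, in 3619 of the 92428 windows, and with Chd8+/- higher in 5.07%. In the stack that holds 5 of this window's CpGs the groups overlapped. The window of the control region had an unadjusted edgeR p of 0.313 and an adjusted p of 1.00. By unweighted mean levels, not edgeR's fold changes, Chd8+/- was higher in 4 of the 7, with a median difference of 1.72 points, against 52.6% and 0.127 points over all windows tested. Over single CpGs read in all 6 samples, edgeR gave 0 of 43 domain CpGs at an adjusted p under 0.05 (0% of all) and 2 at an unadjusted p under 0.05 (3.13% of all, 1.84% with Chd8+/- higher), both higher in Chd8+/- and in the second stack of the control region. Groups did not overlap at 5 of the 43, with Chd8+/- higher at 4, against 7.42% and 4.46% of all such CpGs. Those 4 were the CpGs of the second stack, neighbours within 40 bp on one strand, and are not separate results.

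**Figure D5:**
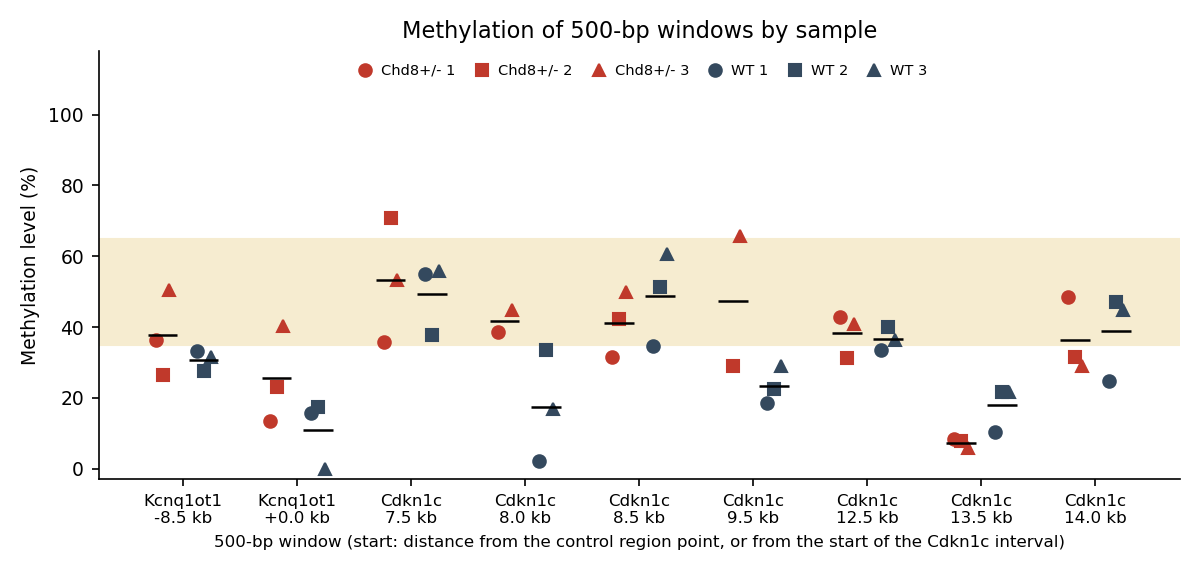
Methylation level (vertical axis, percent) of the 9 windows of 500 bp by sample, Chd8+/- in red to the left of WT in blue, with black bars for group means and a band from 35 to 65%. The windows are named on the horizontal axis by the distance of their start from the control region point or from the start of the Cdkn1c interval, and the control region's window averages 18.3%.

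The spread between samples of a genotype in the near-50% windows differed with the grid and the coverage minimum, which also changed the windows in the band. The SD within a genotype ranged from 5.01 to 14.3 points over the 4 near-50% windows, with a median of 11.4, against a median of 11.1 points over all autosomal windows of that band. On a grid shifted by 250 bp, with 3 near-50% windows, the median of the domain was 5.61 points. At a minimum of 20 reads, with 2 such windows, it was 5.82. On CpGs read in all 6 samples, with 4 such windows, it was 14.5. Counting error of all reads of a window would give an SD of 2.72 to 4.72 points in the 4 windows, below the observed SD in each. The SD that the depth of a single CpG would give by counting alone was 8.37 to 11.2 points in the 4 windows and 8.28 points in the median autosomal window of the band.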

How the data were processed

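DNA of 6 neocortex samples was digested with MspI, size-selected, bisulfite-converted and amplified, per the labels' protocols. Per the submitters' processing notes the tools were Trim Galore 0.4.4, Bismark 0.20.0 and SAMtools 1.9 with build mm39, and their settings and any deduplication are not given in the sources used here. Per the file headers, the authors deposited for each CpG cytosine and strand the coverage, a count of reads, and the percent read as C and as T. The lowest coverage listed was 10. Coverage times percent came within 0.02 of a whole number of methylated reads at 99.9551% of cytosines or more per sample, and was rounded.

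Strands were merged by moving minus-strand positions back by 1 base. Levels of regions and windows are unweighted means over CpGs, compared by exact two-sided permutation tests over samples. edgeR 4.0.16 (quasi-likelihood test, a coverage term per sample) in R 4.3.3 was fitted to methylated and unmethylated reads summed per window, stack or CpG on all 19 autosomes, with Benjamini-Hochberg adjustment over all of them. Features wholly methylated or unmethylated, or without listed reads in a sample, were left out. limma 3.58.1 was run on log2 ratios with 1 added to each count. Both were tested on simulated data, where each recovered the direction of every known change, passed most of them at an unadjusted p under 0.05 and passed none after adjustment. The simulation changed few features, by a fixed step, with a spread between samples that was assumed and not estimated from these data. Other steps used scipy 1.17.1, pandas 2.3.3, numpy 2.4.6 and, for figures, matplotlib 3.10.9, under Python 3.11.15.

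The members, intervals and tests were chosen with earlier results of these data known. By rule the named genes were Kcnq1ot1 and Cdkn1c and the named windows all measured ones. Stacks, and single stacks and CpGs singled out, were chosen after the values were seen. Neighbouring genes and other imprinted promoters were not analysed here, since the gene table follows GRCm38.p6. Alternatives varied the coverage minimum, CpG set, weighting, strand, interval, band, window, filter, tool, replicate block and samples. The conversion statistics were not used.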

Additional observations from a re-analysis of the deposited data

How the results depend on the processing

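Of 59 alternatives run for the level differences of the 4 regions, 53 kept the direction. Among them, the replicate block and leaving out the most deeply read CpGs returned the main value in all 4 regions. So did 1 kb to either side of the point for the control region and 6 to 11 kb for the island. The count is therefore not a measure of stability, and 0.1 was the lowest exact p possible. Outside the control region the Kcnq1ot1 difference of 0.834 points turned to −3.18 points on the minus strand and −0.0690 without both samples numbered 3, and ranged from −0.869 to 4.16 with each sample left out. The Cdkn1c island difference of 5.76 points turned to −5.27 on CpGs read in all 6 samples and −0.188 on the minus strand, ranged from 1.91 to 10.6 with each sample left out, and was 16.4 at a minimum of 20 reads. The control region difference of 14.5 points was 29.6 at 20 reads and 32.8 on the plus strand, both of which leave the second stack alone, the first also without WT replicate 3. It was 8.55 on the minus strand (exact p 0.4) and ranged from 7.11 without Chd8+/- replicate 3 to 20.5. Beyond the Cdkn1c island it ranged from −8.27 to −1.37. The causes were not tested, apart from the fewer CpGs that some alternatives leave. Near-50% windows numbered 4, and 2 in a band of 40 to 60% or at 20 reads, with 4 to 6 when samples were left out. Their median SD of 11.4 points was 5.61 on a grid shifted by 250 bp, 5.82 at 20 reads and 14.5 on CpGs read in all 6 samples. The count of called windows was 0 under each alternative run, with 0 to 0 when samples were left out. The run of near-50% windows around the control region point gave no value, since no window there lay in the band.

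Same-numbered samples deviated together at correlations of −0.00195, 0.00235 and −0.00332 over 92428 windows, so the numbers were not taken as pairs. With the replicate block, edgeR called 0 windows, as without it, and the exact paired p was 0.5 for the control region difference of 14.5 points, 0.25 for the island's 5.76, 0.75 for the −3.87 beyond the island and 1 for the 0.834 outside the control region, where 0.25 is the smallest that 3 pairs allow. Depth of 10 to 64 reads per CpG limits each value in the control region.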
